A study of Mus musculus with 10 samples.

Results

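The genes described here encode the proteasome, its regulatory caps and its activators. They were taken as all genes with a probe set of their own whose symbol starts with Psma, Psmb, Psmc, Psmd or Psme, leaving out Psmb8 and Psmb9, and a gene read by several such probe sets was taken at its brightest one. This gave 42 genes, read by 49 probe sets, of 18820 genes with a probe set of their own. They were measured in the hypothalamus of male CDF1 mice (a BALB/c and DBA/2 cross) aged 10 to 11 weeks on whole-transcript arrays. In the tumour-bearing group, mice were injected under the skin of the flank with 1 × 10⁶ C26 adenocarcinoma cells in 0.2 ml. C26 is a mouse colon tumour line that serves as a transplanted model of cancer cachexia. Controls received a sham injection of 0.2 ml of Hanks' balanced salt solution, the carrier of the tumour cells, and the tissue of all animals was taken on day 20. The single arrays number 3 for controls and 5 for tumour-bearing mice. Each group also has 1 array of pooled RNA, made from 4 animals for the controls and 5 for the tumour-bearing group. The transplanted line stands for 1 tumour, and whether the pools share animals with the single arrays is not given in the labels. All values are log2 levels made by robust multi-array averaging (RMA), so a difference of 1 is a doubling on that scale, and levels of different probe sets are not compared with each other.

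The proteasome is the large protease that breaks down proteins tagged with ubiquitin. Its barrel, the 20S core, has outer rings of alpha subunits, which gate the entrance, and inner rings of beta subunits, some of which cut peptide bonds. The 19S cap recognises and unfolds the tagged protein: its ATPase ring pulls the chain into the barrel, and its non-ATPase subunits bind and remove ubiquitin. Faster protein breakdown by this route is a known feature of muscle in cancer cachexia, and in neurons the proteasome takes part in protein quality control and synaptic turnover.

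Of the 42 genes, 40 read above 20 (log2 level 4.32) on 3 or more of the 8 single arrays and were tested. All but 1 of them were above it on all 8 arrays. The other 2, Psma8, known from testis, and Psmb11, known from thymus, stayed below it on every single array. Psma8 read between 2.77 and 3.37 over the single arrays and Psmb11 between 3.83 and 4.07. Psma4 shared its probe set with another gene and is no member. That shared probe set differed by -0.07 between the groups (limma adjusted p = 0.672). Hypothalamic markers were present, with 8 of 8 listed genes, among them Avp, Oxt, Pomc and Hcrt, past the filter. Their mean level was 0.31 higher in tumour-bearing mice (-0.11 to 0.25, against -0.26 to -0.13 in controls, centred on the mean of the single arrays). Of the 8 genes 7 were above 0, led by Npy (0.84), Oxt (0.66) and Avp (0.50). Hcrt differed by 0.02 and Pomc by -0.17. Of the 8, 0 were called (limma), where 0.0771% of all tested genes were called. The lowest limma adjusted p among them was 0.0597, for Avp. At an unadjusted limma p under 0.05 there were 4 of the 8, against 10.3% of all tested genes.

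The proteasome genes stood at nearly the same level in both groups of mice. None of the 40 tested genes was called higher or lower in tumour-bearing mice (limma adjusted p under 0.05), where 0.0771% of the 12978 tested genes were called. At an unadjusted limma p under 0.05 there was 1 gene, Psmd1, or 2.5% of the members, against 10.3% of all tested genes. It was lower in tumour-bearing mice, as were 6.51% of all tested genes, while 3.78% were higher. Differences ran from -0.13 (Psmd10) to 0.10 (Psmd14), with 19 genes above 0 (47.5%, against 45.5% of all tested genes) and 21 below. No member passed 1.25-fold, against 3.14% of all tested genes. The median over the 40 was -0.0018, and over all tested genes -0.010. The groups did not overlap for 4 of the 40, or 10.0%, against 8.30% of all tested genes, so that count is near the background. Of these, 2 were higher in tumour-bearing mice (3.11% of all tested genes) and 2 lower (5.19%). These are bulk samples, in which fewer cells of a type and less RNA per cell cannot be told apart.

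The intervals of the differences were narrow. The limma 95% interval lay within 1.25-fold in both directions for all 40 genes, against 70.1% of all tested genes. All tested genes were not matched to the members for signal level, and the fit lets the spread depend on level. Among genes above 20 on all 8 single arrays the count was 39 of 39 members, against 74.7% of genes. Whether signal level accounts for the narrower intervals of the members was not tested. The bound of 1.25-fold was chosen after the values were seen, and with 1.2-fold the count was 36. Over the 38 genes of subunits, assembly factors and activators the intervals reached from 0.824-fold to 1.18-fold, each interval taken alone and on the RMA scale, which compresses folds. From the difference to its bound, the median interval measured 0.13 log2 units for the members and 0.17 for all tested genes. The residual standard deviation (SD) between mice of a group was 0.078 at the median member and 0.099 at the median tested gene. The median absolute difference was 0.051 for the members and 0.064 for all tested genes.

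**Figure D1:**
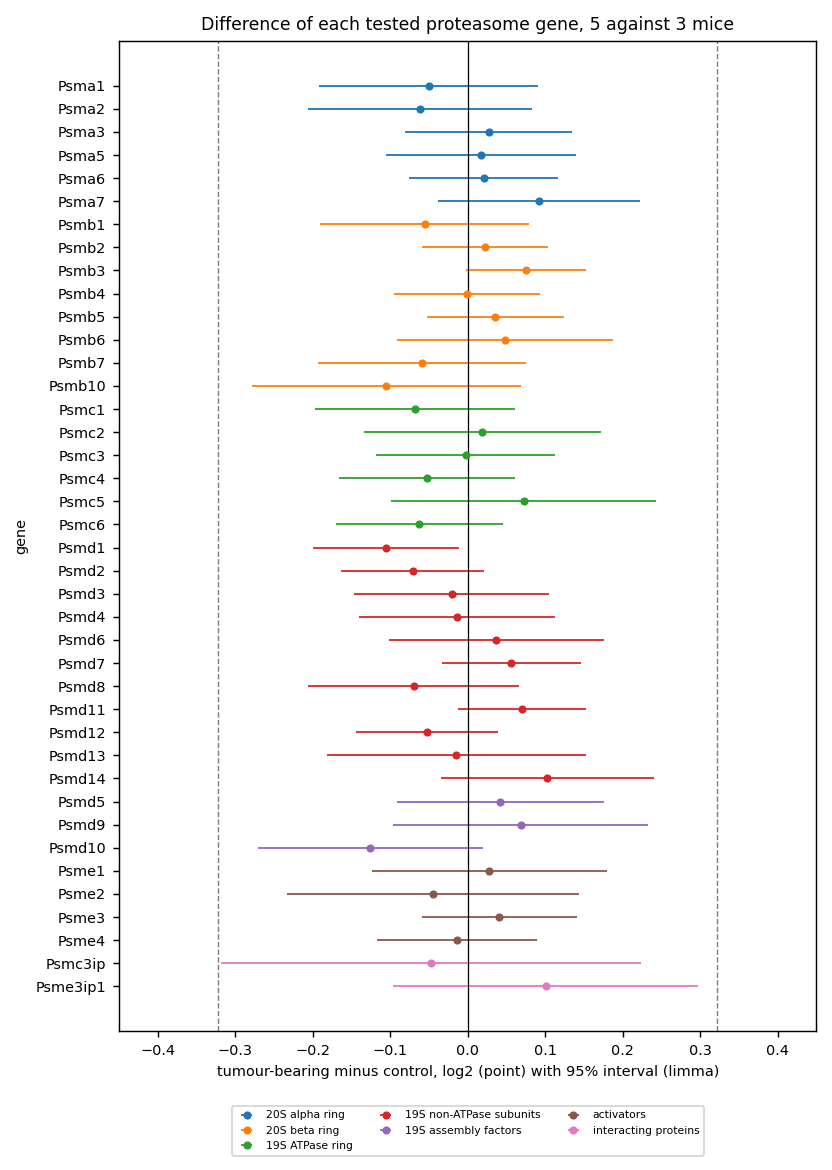
Difference of each of the 40 tested proteasome genes between 5 tumour-bearing and 3 control mice, in log2 units (points), with limma 95% intervals (bars), coloured by structural class. The dashed lines mark 1.25-fold, and every bar lies between them. Only the bar of Psmd1 leaves out 0.

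**Figure D2:**
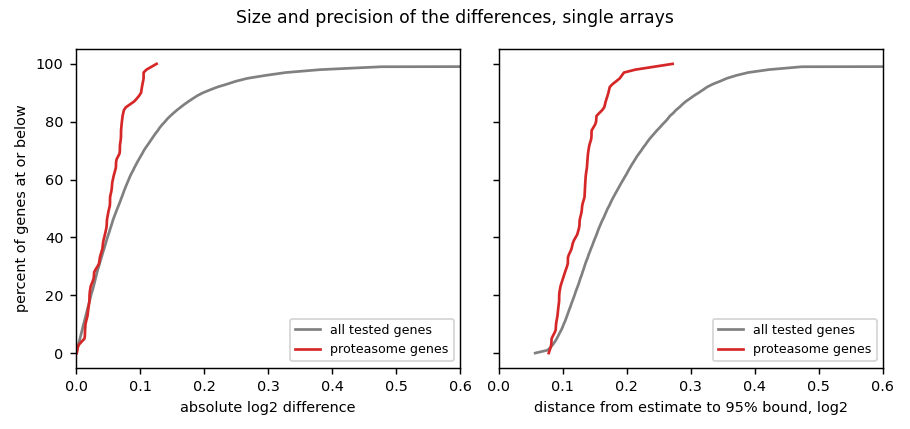
Percent of genes (vertical axis) at or below a given absolute log2 difference (left) and a given distance from the estimate to its 95% bound (right), for the 40 proteasome genes and all 12978 tested genes on the single arrays. The axis is cut at 0.6 log2 units. The members end at an absolute difference of 0.13, which 23.7% of all tested genes exceeded.

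Averaged over the 40 genes and centred on the mean of the single arrays, the level was 0.0037, 0.0078 and -0.0059 in controls 1, 2 and 3. In tumour-bearing mice 1 to 5 it was 0.011, 0.0098, -0.0017, -0.030 and 0.0053. The groups overlapped, and tumour-bearing mouse 4 was the lowest of all 8 animals. The tumour-bearing mean minus the control mean was -0.0030. Some markers of other cell types were further apart on the same arrays. Oligodendrocyte markers differed by -0.46 on average (7 genes; -0.50 to 0.21 in tumour-bearing mice, 0.24 to 0.33 in controls) and dopamine neuron markers of the midbrain by -0.75 (7 genes; -0.93 to 0.34, against 0.33 to 0.55). Anterior pituitary markers (6 genes, 3 of them past the filter) stood at 1.61 and 1.57 in tumour-bearing mice 3 and 4, and between -0.87 and -0.33 in the other 6. The medians over these genes were 0.82 and 0.73 in mice 3 and 4, and between -0.78 and -0.017 in the other 6. Gh and Prl stood highest above the other mice, while Tshb stayed below the filter on every single array. Neuron markers differed by -0.0071 (6 genes) and ran from -0.055 to 0.052 over the single arrays, and the alpha ring (6 genes) ran from -0.062 to 0.055. The part of these markers in the levels of single proteasome genes was not tested. Without tumour-bearing mice 3 and 4 the median over the proteasome genes was 0.0063. In that fit 0 of all 12978 tested genes were called (limma), so a count of 0 members there says nothing particular about them.

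**Figure D3:**
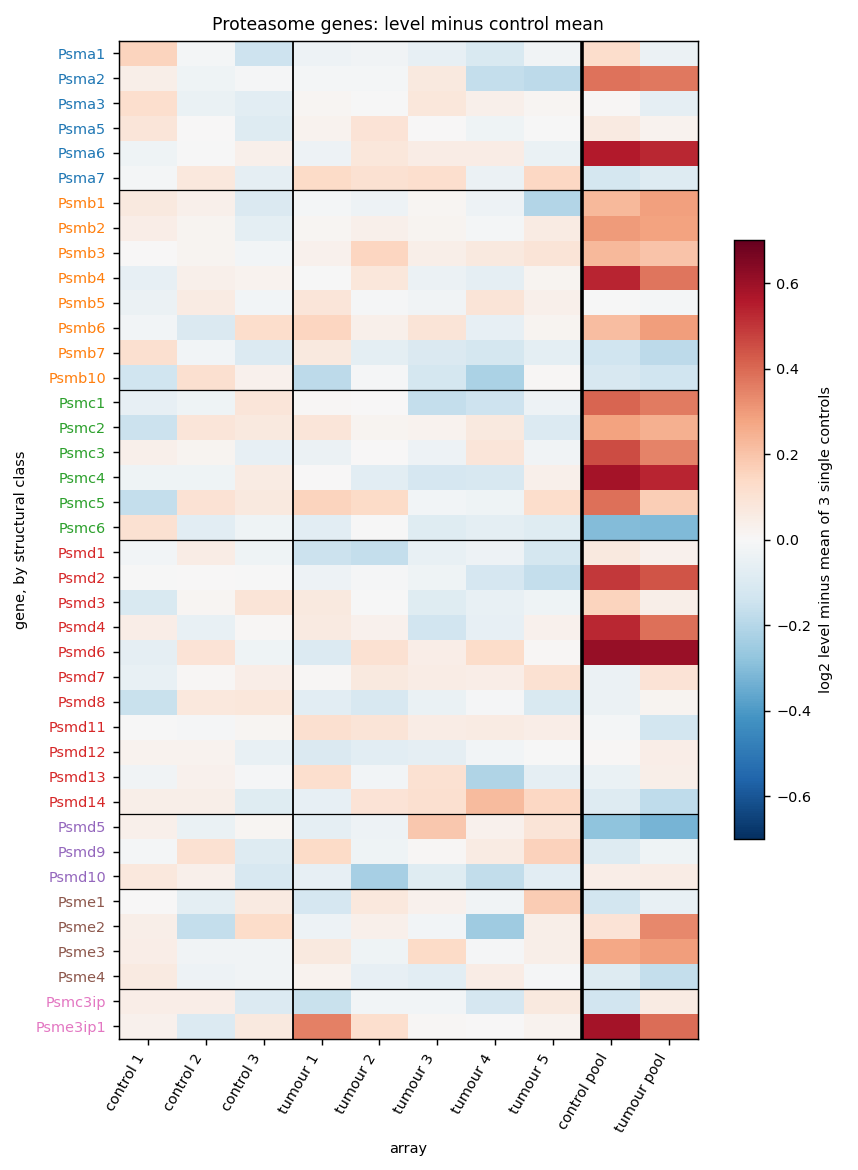
Level of each tested proteasome gene (rows, grouped by structural class) on each array (columns), as the log2 level minus the mean of the 3 single controls. Among the single arrays the highest cell is 0.35, for Psme3ip1 in tumour-bearing mouse 1, and the pools (right of the thick line) reach 0.61, for Psmd6 in the control pool.

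In the alpha ring, 6 genes were tested, with a median difference of 0.019 and 4 of them above 0. Psma7 read 7.56, 7.65 and 7.51 in controls and 7.70, 7.68, 7.69, 7.53 and 7.71 in tumour-bearing mice. Of the tumour-bearing mice 4 lay above every control, and mouse 4 lay within the control range. The difference was 0.09 ± 0.06 (SE; 95% interval -0.04 to 0.22; limma adjusted p = 0.625). Psma2 read 7.87, 7.80 and 7.82 in controls and 7.82, 7.82, 7.90, 7.67 and 7.65 in tumour-bearing mice, with mice 4 and 5 below every control. It differed by -0.06 ± 0.06 (SE; limma adjusted p = 0.795). The rest were Psma1 (-0.05), Psma3 (0.03), Psma6 (0.02) and Psma5 (0.02). The 3 probe sets of Psma3 differed by 0.03, 0.03 and 0.04. The dimmer probe set of Psma5 went the other way from the brighter, by -0.13 (limma adjusted p = 0.652), so the sign for this gene depends on the probe set.

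The beta ring had 8 tested genes, with a median difference of 0.011 and 4 above 0. None of Psmb5, Psmb6 and Psmb7, the 3 subunits that cut peptide bonds in the standard core, was called. Psmb5, which carries the chymotrypsin-like activity, read 10.32, 10.41 and 10.34 in controls and 10.44, 10.35, 10.33, 10.45 and 10.39 in tumour-bearing mice. The groups overlapped, with a difference of 0.04 ± 0.04 (SE; 95% interval -0.05 to 0.12; limma adjusted p = 0.811). Psmb6, of the caspase-like activity, read 8.47, 8.39 and 8.61 against 8.64, 8.52, 8.58, 8.43 and 8.51, a difference of 0.05 ± 0.06 (SE; limma adjusted p = 0.842). Psmb7, of the trypsin-like activity, read 8.68, 8.55 and 8.47 against 8.63, 8.50, 8.46, 8.44 and 8.50, a difference of -0.06 ± 0.06 (SE; limma adjusted p = 0.788). In each of the 3 the groups overlapped.

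Psmb10, which takes the place of Psmb7 in the immunoproteasome, the form induced by interferon, read 7.26, 7.52 and 7.43 in controls and 7.22, 7.39, 7.28, 7.18 and 7.41 in tumour-bearing mice. Mice 1 and 4 lay below every control and the others within the control range. Its difference was -0.11 ± 0.08 (SE; 95% interval -0.28 to 0.07; limma adjusted p = 0.681). Psmb3, a structural subunit without catalytic activity, read 10.72, 10.74 and 10.70 in controls and 10.75, 10.87, 10.76, 10.79 and 10.81 in tumour-bearing mice. Every tumour-bearing mouse read above every control, by a gap of 0.012. The difference was 0.08 ± 0.04 (SE; 95% interval -0.0028 to 0.15; limma adjusted p = 0.492). Its second probe set differed by 0.02, and there the groups overlapped. The others were Psmb1 (-0.06), Psmb2 (0.02) and Psmb4 (-0.0009). The dimmer probe set of Psmb1 differed by 0.15, opposite in sign to the brighter (limma adjusted p = 0.762).

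In the ATPase ring of the cap, 6 genes were tested, with a median difference of -0.028 and 4 below 0. Psmc6 read 8.80, 8.61 and 8.66 in controls and 8.61, 8.69, 8.61, 8.62 and 8.60 in tumour-bearing mice. Control 1 stood apart from the other controls, and the groups overlapped. The difference was -0.06 ± 0.05 (SE; limma adjusted p = 0.698), and -0.0088 without control 1. Psmc1 read 8.45, 8.48 and 8.60 in controls and 8.52, 8.51, 8.34, 8.36 and 8.47 in tumour-bearing mice, where mice 3 and 4 lay lowest. These mice also had high pituitary markers, and any link of those to the level of Psmc1 was not tested. On the dimmer probe set of Psmc1, mouse 3 read 7.92, below the controls (7.96, 7.93 and 8.01), and mouse 4 read 8.03, above them. On its brighter probe set Psmc1 differed by -0.07 ± 0.06 (SE; limma adjusted p = 0.733), and by -0.0087 without mice 3 and 4. On the dimmer one it differed by 0.05. The rest were Psmc4 (-0.05), Psmc5 (0.07), Psmc2 (0.02) and Psmc3 (-0.0027).

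The 11 tested non-ATPase subunits had a median difference of -0.015, with 4 above 0 and 7 below. The groups did not overlap for Psmd1, Psmd2 and Psmd11. Psmd1, a large scaffold subunit of the base of the cap, read 10.15, 10.22 and 10.14 in controls and 10.02, 10.00, 10.12, 10.14 and 10.05 in tumour-bearing mice. Every tumour-bearing mouse read below every control, but the gap was only 0.00084, between control 3 and tumour-bearing mouse 4. The difference was -0.11 ± 0.04 (SE; 95% interval -0.20 to -0.01; limma unadjusted p = 0.0321, adjusted p = 0.418, with adjusted p from 0.293 to 0.851 over the alternatives). Psmd2, the other large scaffold subunit of the base, read 10.05, 10.06 and 10.05 in controls and 10.02, 10.04, 10.02, 9.94 and 9.89 in tumour-bearing mice, all 5 below the controls, by a gap of 0.0066. It differed by -0.07 ± 0.04 (SE; limma adjusted p = 0.595). Its dimmer probe set differed by -0.12 ± 0.05 (SE; limma unadjusted p = 0.0273, adjusted p = 0.411), and there the groups overlapped.

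Psmd11, a subunit of the lid of the cap, read 8.24, 8.23 and 8.25 in controls and 8.35, 8.33, 8.29, 8.29 and 8.28 in tumour-bearing mice. The groups were apart by a gap of 0.031, with each tumour-bearing mouse the higher, and the difference was 0.07 ± 0.04 (SE; 95% interval -0.01 to 0.15; limma adjusted p = 0.545). In the pools the same gene differed by -0.12, opposite in sign. Psmd14, the enzyme that strips ubiquitin chains off at the cap, read 9.43, 9.43 and 9.30 in controls and 9.33, 9.48, 9.50, 9.61 and 9.53 in tumour-bearing mice. All tumour-bearing mice but mouse 1 lay above the controls. It had the highest difference of the 40, 0.10 ± 0.06 (SE; limma adjusted p = 0.602), and differed by -0.085 in the pools. Psmd4, a ubiquitin receptor of the cap, differed by -0.01. The remaining subunits were Psmd3 (-0.02), Psmd6 (0.04), Psmd7 (0.06), Psmd8 (-0.07), Psmd12 (-0.05) and Psmd13 (-0.01). The Psmd8 difference moved most with control 1, whose level was 8.19 against 8.42 and 8.43 in the other controls: without it the difference was -0.15 (limma adjusted p = 0.305).

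The symbols Psmd5, Psmd9 and Psmd10 belong to chaperones that help assemble the base of the cap and then leave it. Psmd10, also called gankyrin, read 7.48, 7.44 and 7.29 in controls and 7.34, 7.17, 7.32, 7.23 and 7.33 in tumour-bearing mice. Tumour-bearing mice 2 and 4 lay below every control and the other 3 above the lowest control. Its difference, -0.13 ± 0.06 (SE; 95% interval -0.27 to 0.02; limma adjusted p = 0.533), was the largest in size among the 40. Psmd9 read 6.51, 6.63 and 6.43 against 6.66, 6.50, 6.54, 6.59 and 6.69, with overlap and a difference of 0.07 ± 0.07 (SE; limma adjusted p = 0.803). Psmd5 differed by 0.04.

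The 4 activators, which cap the barrel in place of 19S, had a median difference of 0.0072. Psme3, the nuclear activator PA28 gamma, read 9.36, 9.29 and 9.29 in controls and 9.38, 9.28, 9.45, 9.31 and 9.36 in tumour-bearing mice, a difference of 0.04 ± 0.04 (SE; limma adjusted p = 0.808). Psme2, the beta subunit of the interferon-induced activator PA28, read 8.24, 8.03 and 8.33 against 8.17, 8.24, 8.18, 7.95 and 8.24, a difference of -0.04 ± 0.08 (SE; limma adjusted p = 0.898). In both genes the groups overlapped. Psme1, its alpha subunit, differed by 0.03 and Psme4, which encodes PA200, by -0.01. A further 2 genes carry the symbol prefix without encoding a subunit. Psme3ip1, whose product binds the Psme3 activator, read 7.14, 7.01 and 7.17 in controls and 7.46, 7.22, 7.12, 7.11 and 7.13 in tumour-bearing mice, a difference of 0.10 ± 0.09 (SE; limma adjusted p = 0.741) that was 0.038 without mouse 1, the highest. Psmc3ip, a meiotic recombination factor, passed the filter on 3 arrays only. It read 4.36, 4.36 and 4.22 against 4.16, 4.30, 4.30, 4.20 and 4.39, a difference of -0.05 ± 0.12 (SE; limma adjusted p = 0.930).

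Other genes of the pathway were read from lists of assembly factors, partner subunits, regulators, immunoproteasome genes, ubiquitin genes and muscle ubiquitin ligases. Of 43 listed genes 29 were tested, and 0 were called in either direction (limma), with 1 at an unadjusted limma p under 0.05. Nfe2l1, the transcription factor that raises subunit genes when the proteasome is impaired, differed by -0.03, and Ngly1, the enzyme that helps to activate it, by 0.09 (limma adjusted p = 0.706), the smallest p among 5 regulators. Among 6 tested assembly and inhibitor genes Psmg2, an assembly chaperone, differed by -0.18 ± 0.09 (SE; limma adjusted p = 0.547) and Pomp, which matures the barrel, by 0.03. Of the partners of the cap, Uchl5, a deubiquitinase, differed by -0.13 (limma adjusted p = 0.544) and Sem1 by 0.03. In the immunoproteasome list 3 of 4 tested genes were above 0, with a list median of 0.13. Tap1 and Tap2, which carry peptides to the sites of antigen loading, and Irf1, an interferon response factor, each differed by 0.13. Their SEs were 0.13 to 0.14 (limma adjusted p = 0.767 to 0.795). Psmb9, an immunoproteasome subunit, had the smallest p and the opposite sign, with a difference of -0.14 ± 0.13 (SE; limma adjusted p = 0.764). In the pools each of these genes had the opposite sign: Tap1 -0.12, Tap2 -0.24, Irf1 -0.069 and Psmb9 0.26. Psmb8 stayed below the filter, at 3.73 ± 0.07 (SD, n = 3) in controls and, in the tumour-bearing group, at 3.90 ± 0.10 (SD, n = 5). In the ubiquitin list 6 of 9 tested genes were above 0 and 3 below, with a median of 0.0056. Ubqln4, a shuttle that carries tagged proteins to the proteasome, had its smallest p and differed by -0.14 ± 0.07 (SE; limma adjusted p = 0.484), while the related shuttle Ubqln2 differed by 0.13 ± 0.07 (SE; limma adjusted p = 0.536).

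Fbxo32, or atrogin-1, the ubiquitin ligase known for its rise in wasting muscle, had the smallest p of these 29 genes. Its level was 6.63 ± 0.12 (SD, n = 3) without a tumour and 6.39 ± 0.11 (SD, n = 5) with one, a difference of -0.25 ± 0.09 (SE; 95% interval -0.44 to -0.06; limma unadjusted p = 0.0164, adjusted p = 0.372), and it was -0.44 in the pools. It did not pass the threshold. Trim63, or MuRF1, the other ligase of this kind, stayed below the filter at 3.51 ± 0.09 (SD, n = 3) and 3.49 ± 0.32 (SD, n = 5).

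Both pools read higher than the single arrays for some of the proteasome genes, and the 2 pools differed little from each other. The median member read 0.081 above the single arrays of its group in the control pool and 0.10 above them in the tumour-bearing pool, against 0.0064 and 0.013 for all tested genes. Between the tumour-bearing pool and the control pool the median difference was -0.028, with 13 of 40 genes above 0 (32.5%, against 47.3% of all tested genes). None of the 40 passed 1.25-fold, against 5.34% of all tested genes. The sign was the same as in the single arrays for 20 of 40, or 50% (60.9% of all tested genes). With 1 array each, none of these values has a test.

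Set against the single arrays of its own group, each pool read over 1.25-fold higher for 9 of the 40 genes in both groups at once, or 22.5%, against 2.30% of all tested genes. None read over 1.25-fold lower in both, against 2.20%. These 9 were Psma2 and Psma6 of the alpha ring, Psmb4 of the beta ring, the ATPases Psmc1, Psmc3 and Psmc4, and the non-ATPase subunits Psmd2, Psmd4 and Psmd6. Psmd6 read 8.74 in the control pool against 8.13 ± 0.08 (SD, n = 3) in single controls, and 8.73 in the tumour-bearing pool against 8.16 ± 0.09 (SD, n = 5) in single tumour-bearing mice. Psmc4 read 8.87 in the control pool against 8.29 ± 0.05 (SD, n = 3), and 8.82 in the tumour-bearing pool against 8.23 ± 0.07 (SD, n = 5). Over the ATPase ring the median excess was 0.40 for controls and 0.29 for tumour-bearing mice, yet Psmc6 went the other way, by -0.30 and -0.25. The second probe sets of Psmc1 (0.67 and 0.56) and Psmd2 (0.60 and 0.62) stood as far above the single arrays. No assembly factor or activator was among the 9. Neuron markers stood at 0.086 and 0.022 in the control and tumour-bearing pools, on the scale centred on the single arrays of both groups together. This scale carries the group difference, so the means of the single controls and single tumour-bearing mice are given beside the pools. For neuron markers these were 0.0045 and -0.0027. In the same order, astrocyte markers stood at 0.20 and 0.075 in the pools (single arrays 0.030 and -0.018). Oligodendrocyte markers stood at 0.34 and 0.046 (single arrays 0.29 and -0.17). Midbrain dopamine markers stood at 0.35 and 0.21 (single arrays 0.47 and -0.28), and anterior pituitary markers at -0.38 and 1.27 (single arrays -0.66 and 0.39). Microglia (0.028 and -0.062), endothelium (0.039 and -0.032) and hypothalamus markers (-0.082 and 0.16) were also read. Their single arrays averaged 0.070 and -0.042, 0.038 and -0.023, and -0.20 and 0.12. The part of these markers in the pool levels was not tested. Pooled RNA, other mice and any separate preparation of these arrays cannot be told apart in this design. When the pools were added as samples, 32 of 40 genes had an interval within 1.25-fold, against 74.7% of all tested genes.

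**Figure D4:**
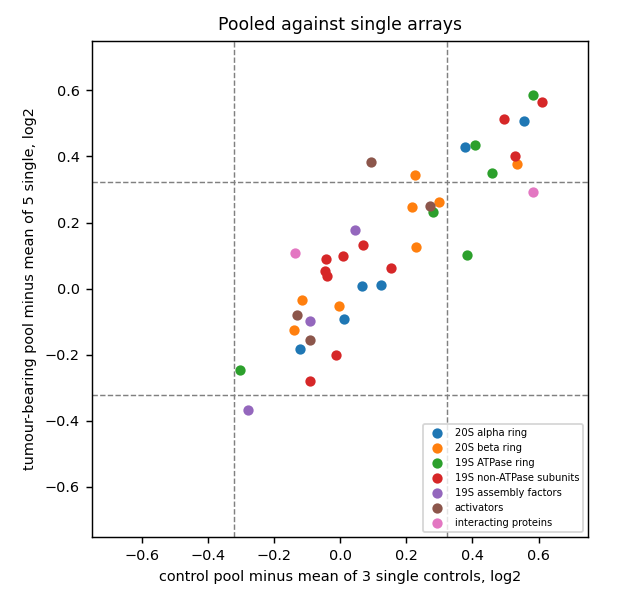
Level in each pooled array minus the mean of the single arrays of the same group, in log2 units, for the control group (horizontal axis, 3 single mice) and the tumour-bearing group (vertical axis, 5 single mice). Each point is 1 of the 40 tested genes, coloured by structural class, and the dashed lines mark 1.25-fold. The 9 points at the upper right lie past 1.25-fold in both groups.

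Within the groups, correlations among the members averaged near 0. After each group's mean was removed, the mean pairwise correlation of the 40 genes over the 8 single arrays was 0.0033, and that of all tested genes was 0.0043. Of 780 pairs 400 were above 0. By class the mean was 0.21 in the alpha ring, 0.016 in the beta ring, -0.019 in the ATPase ring and -0.045 among the non-ATPase subunits. In the smaller classes it was 0.24 for the 3 assembly factors, 0.016 for the 4 activators and -0.60 for the 2 interacting proteins. The arrays of a group share the mean that was removed, and these values describe 8 arrays.

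The promoters were examined for the core of the antioxidant response element, the motif through which Nfe2l1 and Nfe2l2 are known to act, because subunit genes are known targets of Nfe2l1. RefSeq promoters of GRCm38.p6 were 300 bases long, with 250 before the start and 50 after it. They were held for 33 of 40 subunit, assembly and activator genes, 36 promoters in all. This set of 40 is not the 40 tested genes: it leaves out Psme3ip1 and Psmc3ip and takes in the untested Psma8 and Psmb11. The core, TGACNNNGC on either strand, lay in 6 of 36 (16.7%), against 13.9% of the promoters of tested genes and 12.4% of all promoters, so its share was near the background. It lay in the promoters of Psmb5, Psmb6, Psmc6, Psmd9, Psmd12 and Psme4. The 3 sense-strand matches, all within 50 bases before the start, are shown because 2 of them belong to catalytic subunits. They are written 5′ to 3′ on the strand of the gene, with the core in capitals and up to 20 bases around it, ending at the start of the transcript where that comes first.
Psmb5 (chr14:54618014-54618062, minus strand, core from base -47): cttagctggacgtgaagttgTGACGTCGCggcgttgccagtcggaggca
Psmb6 (chr11:70525328-70525356, plus strand, core from base -9): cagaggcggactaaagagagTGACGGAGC
Psmd9 (chr5:123228139-123228187, plus strand, core from base -31): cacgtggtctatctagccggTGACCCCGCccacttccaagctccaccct
The differences of these genes on the single arrays were 0.04, 0.05 and 0.07, given above with their errors. The CCAAT box, CCAAT on either strand, lay in 36.1% of member promoters, against 36.9% of those of tested genes and 37.4% of all promoters. On the sense strand alone it lay in 12 of 36 (33.3%), against 20.6% and 21.1%, a difference that was not tested. On the sense strand the antioxidant core lay in 8.33%, against 7.35% of the promoters of tested genes and 6.38% of all promoters. The GC box, GGGCGG, lay on either strand in 58.3%, against 60.8% of those of tested genes and 35.7% of all promoters (sense strand 36.1%, against 41.1% and 23.4%). The TATA box, TATAAA, lay on either strand in 8.33%, against 7.47% and 13.6% (sense strand 8.33%, against 4.61% and 8.32%). A match describes the letters of the window and is not a shown binding site.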

How the data were processed

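Hypothalamus RNA of 3 control and 5 tumour-bearing mice, and 1 pool per group, was hybridised to 1 array each. The deposited table holds log2 levels. The submitters' processing notes name RMA, by which the authors made them. The version and the genome build are not given in the sources used here, and the log2 scale was inferred from the range of values. Because RMA gives every array the same distribution of probe values, a shift common to all genes is not visible. Array medians over probe sets were 5.27 in the control pool, 5.28 in the tumour-bearing pool and 5.30 to 5.32 on the single arrays. Single arrays correlated at 0.980 to 0.989.

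A platform annotation paired 21218 of 35556 probe sets with 1 gene, 1881 with several and 12457 with none here. Probe sets above 20 on at least 3 single arrays (22837, covering 12978 genes) were fitted with limma 3.58.1 in R 4.3.3 (eBayes with an intensity trend), with Benjamini-Hochberg adjustment over all of them and a threshold of 0.05. The fit was tested on simulated data. Pools entered 1 alternative only. The members, lists and classes were chosen with earlier results of these data known. Values per array were given for the 2 tested members of smallest p in each class, for members without overlap, for the members of highest and lowest signal, for the catalytic subunits, chosen for their role, and for Psmd14 and Psmd8, chosen after their values were seen. Other pathway genes were named by the smallest p in each list, with a few further genes named for their role after their values were seen. The alternatives concerned the filter, variance model, array weights, normalization, replicate block, pools, probe sets and each left-out mouse. The number of arrays limits the precision. Figures used matplotlib 3.10.9.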

Additional observations from a re-analysis of the deposited data

Results flagged for a closer look

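Among the 40 tested genes, 5 had 1 tumour-bearing mouse farther from the other 4 than Dixon's 95% criterion allows. Chance flags about 1 in 20 such groups. The share of all tested genes that this rule flags on these arrays was not counted. The 5 flags are therefore not read as particular to the proteasome genes. Psma7 was lowest in mouse 4, at 7.53, with the next at 7.68. Psme2 was lowest in the same mouse, at 7.95, with the next at 8.17. Psmb1 was lowest in mouse 5, at 8.31, with the next at 8.48. Psmb7 was highest in mouse 1, at 8.63, with the next at 8.50, and Psmc6 was highest in mouse 2, at 8.69, with the next at 8.62.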

How the results depend on the processing

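Under all 20 alternatives, 0 proteasome genes were called (limma), with a lowest adjusted p of 0.293 (Psmd1, with array weights), and 0 of the other pathway genes were called. Few genes of any kind were called in these fits, from 0 to 68 of all tested genes. The count was 0 of all 12978 genes with the replicate block, without control 3, and without tumour-bearing mice 3 and 4. In those fits a count of 0 members was fixed in advance. With each mouse left out in turn the count of called members was 0, the median difference ran from -0.0086 to 0.0099, and 37 to 40 genes had an interval within 1.25-fold. With the replicate number as a block these values were 0, 0.013 and 36. Tumour-bearing mice 4 and 5 have no control of the same number and add nothing to the difference in the block fit. Deviations of same-numbered mice correlated at -0.0020, 0.0084 and 0.0089, and those of other pairs at -0.041 to 0.030. These values cannot decide whether the numbers pair the mice, and the labels do not say. Of the 40 genes 19 kept their sign under every alternative and 21 changed it at least once, none of them called. Members at an unadjusted limma p under 0.05 numbered 0 to 3 (3 with array weights, where 13% of all tested genes passed). Those without overlap numbered 0 with pools added (2.91% of all tested genes) to 8 without control 3 (15.3%). The count of genes higher in both pools was 9 with cyclic loess and with median centring, 10 at a fold of 1.2 and 0 at a fold of 1.5, where 0.17% of all tested genes passed; these were chosen after seeing the data, as was 40 within 1.5-fold. The share of promoters with the antioxidant core was 8.33% on the sense strand alone.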
